A study of Aspergillus fumigatus with 12 samples.

Results

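This account concerns the response of mycelium to the azo dye Ponceau 2R given alone. It compares 3 libraries from basic medium with Ponceau 2R (P2R) with 3 libraries from basic medium only (CK). Its members are the genes listed at 1 FPKM or more in 3 or more of these 6 libraries, which were 9058 of the 10276 genes in the deposited table. FPKM is a fragment count scaled to the length of the gene and the depth of the library. The series also holds 3 libraries with sinapic acid (SA) and 3 with the dye and sinapic acid (P2R+SA), which enter only where the dye effect is set beside its counterpart in sinapic acid medium.

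All 4 groups share the strain, named X-13, and the basic medium, and the labels give mycelium as the source of every library. The series title names Trametes hirsuta, while the organism field of the samples gives Aspergillus fumigatus. The dose of the dye is not given in the sources used here. A time of 48 h is stated for the whole design, but the header of each P2R and CK library carries the number 36 and that of each P2R+SA and SA library the number 48. The P2R and CK libraries therefore share 1 header number. After the letters P2R, the P2R+SA headers also hold a 4 that the P2R headers lack, and its meaning is not given. Nothing in the labels ties the 3 libraries of a group to separate cultures. P-values therefore measure only the spread among these libraries, and that spread may be technical. Gene IDs come without names or products in the files, and 0 of them matched the 10086 genes of the reference table, of Aspergillus fumigatus. Genes are therefore given by ID or by rank, and the mycelial source was not checked against marker genes.

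White-rot fungi such as Trametes live on wood and secrete oxidative enzymes, laccases and peroxidases among them, that attack lignin. These enzymes act on many substrates and also break down synthetic dyes. Azo dyes such as Ponceau 2R carry aromatic rings joined by a nitrogen-to-nitrogen double bond, which gives them their colour. Without names, the members of these enzyme families could not be picked out here.

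Each of the 6 libraries held 36519424 to 39408714 fragments in the listed genes, a depth recovered from the FPKM values. At that depth 1 FPKM stands for 50.5 fragments in a gene of the median coding length of 1356 bp, and only 254 of the 9058 genes averaged under 50 fragments. P2R replicates correlated with each other at Spearman values of 0.9901 to 0.9952, and CK replicates at 0.9944 to 0.9955. The 9 pairs of a P2R and a CK library lay lower, at 0.9457 to 0.9657. The first principal component of log2(FPKM + 1) held 82.2% of the variance of the 6 libraries. On it the P2R libraries lay at 23.9, 36.0 and 24.5 and the CK libraries at -25.8, -28.1 and -30.5. P2R replicate 2 lay farthest out, and it also had the lower correlations within its group. The SD over the 3 replicates, on the log2(FPKM + 1) scale, had a median over genes of 0.13 in P2R and 0.10 in CK, and it was larger in P2R for 5792 genes.

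Many genes differed between P2R and CK by small amounts and few by large amounts. Of the 9058 genes, 4513 (49.8%) changed at a limma adjusted p under 0.05, with 1823 (20.1%) higher and 2690 (29.7%) lower in P2R. The median size of a called change was 0.55 log2 units and the smallest was 0.17. A total of 3802 of the called genes, 84.2%, changed by under 1 log2 unit. Differences are P2R minus CK in log2(FPKM + 1). The added 1 FPKM makes the change of low genes look smaller than it is. The groups did not overlap in 5509 genes (60.8%), 2185 (24.1%) with every P2R library above every CK library and 3324 (36.7%) with every P2R library below.

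Large changes went mostly up. At least 1 log2 unit was reached by 711 called genes (7.85%), of which 443 (4.89%) rose and 268 (2.96%) fell, so that 62.3% were rises. A test against a minimum change of 1.5 times (limma treat, adjusted p under 0.05) called 582 genes (6.43%), 350 (3.86%) higher and 232 (2.56%) lower in P2R. With all 12 libraries in the fit that test called 172 genes, 116 higher and 56 lower in P2R. By size, 61 genes rose by 2 log2 units or more, 382 by 1 to 2, 708 by 0.5 to 1 and 672 by less. Among the falls the counts were 31, 237, 1141 and 1281. Rises thus outnumbered falls above 1 log2 unit, and falls outnumbered rises below it.

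**Figure D1:**
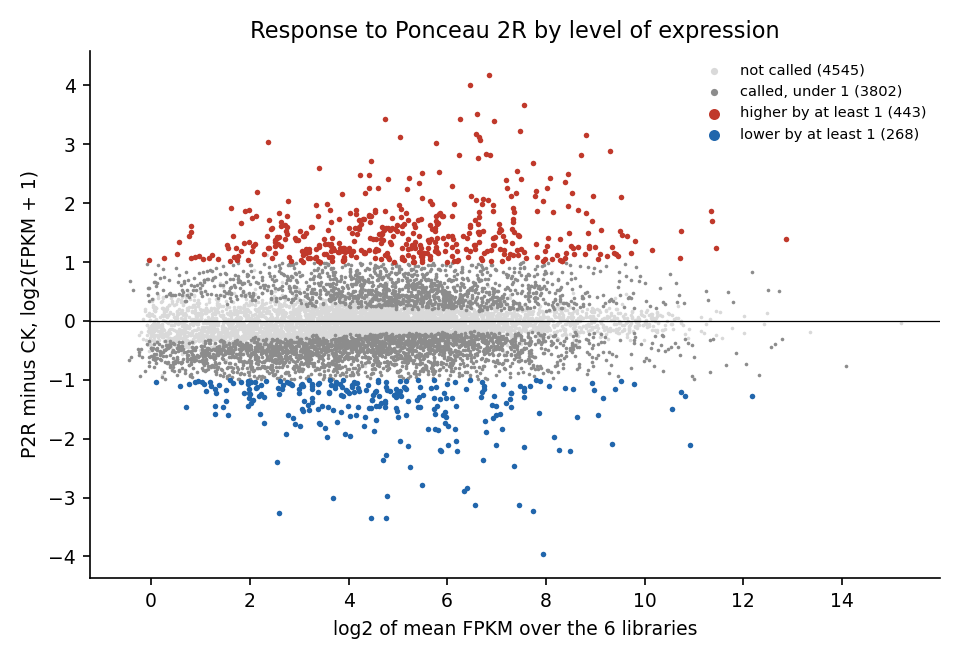
Difference between P2R and CK of each of the 9058 genes (vertical axis, log2(FPKM + 1)) against the log2 of its mean FPKM over the 6 libraries (horizontal axis). Coloured points are the 443 genes that rose and the 268 that fell by at least 1 log2 unit at a limma adjusted p under 0.05. Dark grey points are the other 3802 called genes and light grey points the 4545 genes that were not called.

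The balance of direction over all calls depended on the scaling, while rises led among the large changes in all 15 alternatives. As deposited, 40.4% of the called genes were higher in P2R and the median of all genes lay at -0.093 log2 units. After median-of-ratios scaling 52.5% were higher (2302 against 2084 lower) and the median lay at 0.002. With limma-voom on the recovered fragments 52.6% were higher, and after quantile normalization 44.0%. Rises made up 71.1%, 63.7% and 66.8% of the changes of at least 1 log2 unit under these 3 alternatives. Their lead was smallest with a pseudocount of 0.1 FPKM, at 517 rises against 432 falls (54.5%). When all 12 libraries entered 1 fit, in which the wider spread of the SA and P2R+SA libraries counts too, 2651 genes were called (29.3%). All 2651 were among the 4513. Both fits give the same differences, so their signs could not disagree.

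**Figure D2:**
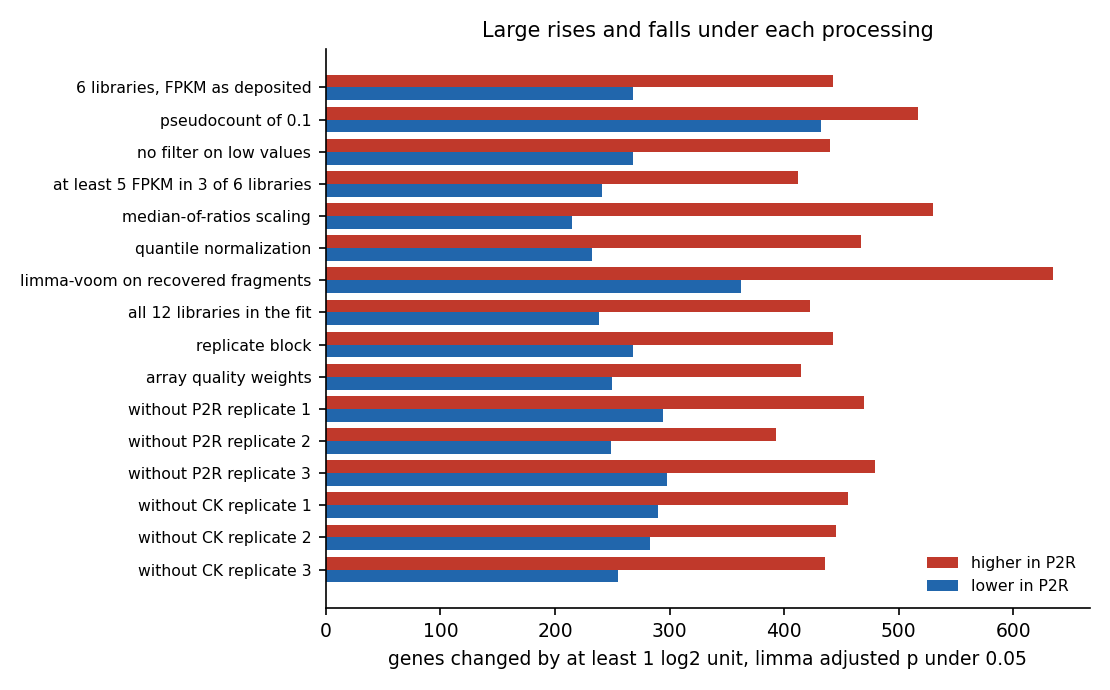
Number of genes changed by at least 1 log2 unit at a limma adjusted p under 0.05 (horizontal axis) under each processing (rows), for genes higher (upper bar of a pair) and lower (lower bar) in P2R. The bar of the rises is the longer one in every row, from 393 against 249 without P2R replicate 2 to 635 against 362 with limma-voom on recovered fragments.

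Direction varied with expression level. Genes were put in classes by their mean over all 6 libraries. Among 1695 genes under 5 FPKM, 699 (41.2%) were called, 188 higher and 511 lower, so that 26.9% of the called genes were higher in P2R. The share higher was 35.4% in 2490 genes at 5 to 20 FPKM and 44.7% in 3230 genes at 20 to 100 FPKM. It was 49.5% in 1314 genes at 100 to 500 FPKM and 49.6% in 329 genes at 500 FPKM and over. The called genes of the lowest class were thus mostly lower in P2R, and those of the highest classes were split about evenly. Under median-of-ratios scaling the same 5 shares were 34.7%, 46.7%, 58.4%, 61.8% and 63.2%, so the lean of low genes to falls held while the balance of the abundant genes turned to rises. These counts include genes that passed the expression limit through 1 group alone, 77 through CK and 35 through P2R, which had to differ. They are among 171 genes with 1 FPKM in exactly 3 of the 6 libraries, whose means over the 6 were at most 6.02 FPKM. Of the 171, 97 were called and 31 were called higher. The lean of low genes without them was not tested.

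Large changes were spread over all levels. At 100 to 500 FPKM, 101 of the 1314 genes were higher and 43 lower in P2R by at least 1 log2 unit. At 500 FPKM and over 10.6% changed by that much, 23 higher and 12 lower, and under 5 FPKM 4.7%, 37 higher and 43 lower. The lowest class had 15.3% with a pseudocount of 0.1, 81 higher and 178 lower, so its share depended on the pseudocount. Genes that passed the expression limit through 1 group alone were not removed from these counts. The spread between replicates was also widest there, with a median SD of 0.17 log2 units in P2R and 0.14 in CK, against 0.11 in P2R and 0.079 in CK at 100 to 500 FPKM.

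**Figure D3:**
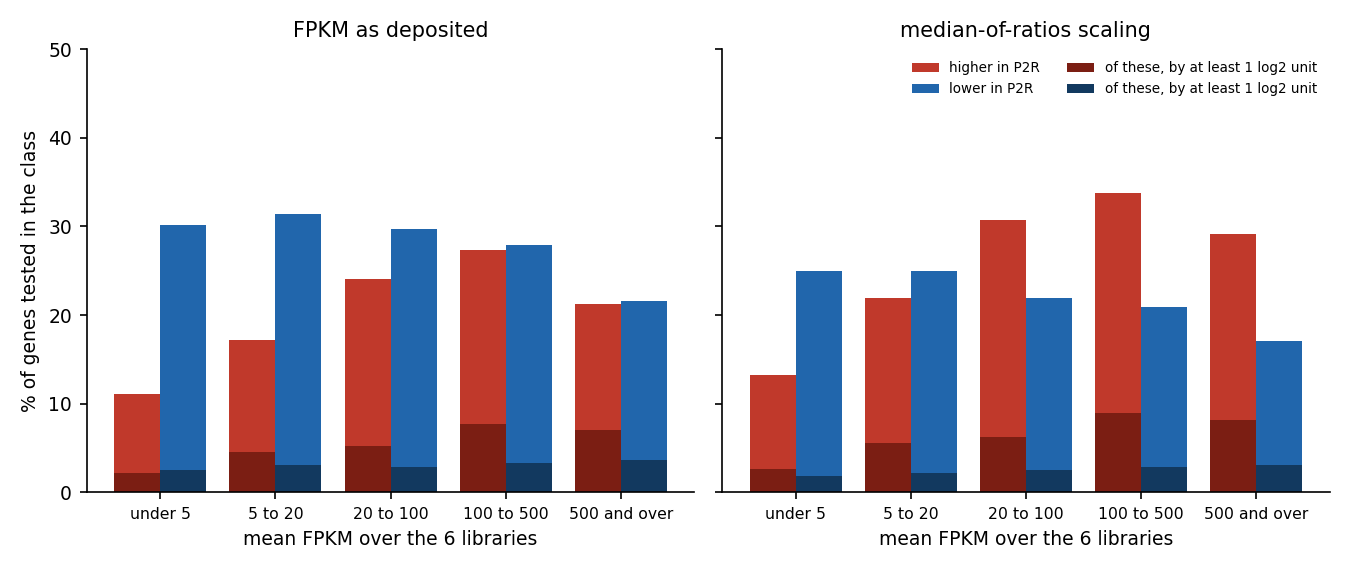
Share of the genes tested in each class of mean FPKM (horizontal axis) that were higher (left bar) or lower (right bar) in P2R at a limma adjusted p under 0.05, in percent. The dark base of a bar is the part that changed by at least 1 log2 unit. As deposited (left panel) lower genes outnumber higher ones 511 to 188 under 5 FPKM, and after median-of-ratios scaling (right panel) higher genes outnumber lower ones from 20 FPKM upward.

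Large changes were least frequent in the genes with the longest coding sequences, by lengths recovered with the fragments. Among the 2261 genes with the longest coding sequences (2052 to 15048 bp), 4.6% changed by at least 1 log2 unit, 70 higher and 35 lower in P2R. Among the 2271 genes with the shortest ones (201 to 894 bp) it was 9.2%, with 128 higher and 82 lower, and in the 2264 genes of 897 to 1356 bp 9.7%. In the 2262 genes of 1359 to 2049 bp it was 7.8%. The share called at any size was 46.9%, 51.3%, 53.6% and 47.5% from the shortest to the longest class. Short genes were also more abundant, with a median of 39.5 FPKM in the shortest class and 18.9 FPKM in the longest. Within level classes, large changes were more frequent in genes at or under the median length than in longer ones in 4 of 5 classes. The shares were 5.6% and 3.8% under 5 FPKM and 10.1% and 6.4% at 20 to 100 FPKM. At 500 FPKM and over they were 11.4% (31 of 273) and 7.1%, the latter only 4 of 56 genes. At 5 to 20 FPKM it was 116 of 1052 shorter and 75 of 1438 longer genes. At 100 to 500 FPKM the order was the other way, 9.8% of the shorter and 13.2% of the longer genes. The part of expression level in the relation to length was not tested.

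Few genes went from near absence to clear expression or back. No gene was under 1 FPKM in every CK library and at 5 FPKM or more in every P2R library. In 1 gene the reverse was seen, with 0.635, 0.206 and 0.139 FPKM in P2R against 13.7, 9.60 and 11.8 FPKM in CK, a 35.8-fold lower mean that rests on 19, 6 and 4 fragments in P2R. Its coding length is 786 bp and it ranked 4 among the falls. Only 35 genes passed the expression limit through P2R alone and 77 through CK alone, with means of at most 10.1 and 11.7 FPKM, so these had to differ. At the edge of the limit, the 171 genes with 1 FPKM in exactly 3 of the 6 libraries had medians of 0.87 FPKM in P2R and 1.19 FPKM in CK, and the 116 genes just outside it had 0.835 FPKM in P2R and 0.952 FPKM in CK.

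The changed genes carried a sizeable part of the measured transcript. The 443 genes with large rises held 8.94%, 11.4% and 9.64% of all FPKM in the P2R libraries, against 3.74%, 3.36% and 3.25% in the CK libraries. The 268 genes with large falls held 1.74%, 1.63% and 1.66% in P2R and 4.51%, 4.39% and 4.91% in CK. These genes were chosen by this contrast, so the gap describes its weight and is no test of it. In libraries that did not choose them, the rising genes held 6.75%, 9.99% and 9.42% in P2R+SA against 6.72%, 5.34% and 5.91% in SA. The falling genes held 2%, 1.49% and 1.55% in P2R+SA against 2.15%, 4% and 4.21% in SA. The groups did not overlap in either set, but replicate 1 of P2R+SA and replicate 1 of SA were nearly level in both.

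The 10 and the 100 most abundant genes held a smaller share in every P2R library than in any CK library, but the exact test used cannot go below 0.1 with 3 libraries a group. The 10 most abundant genes of each library held 11.7 ± 0.68% of all FPKM in P2R and 12.6 ± 0.27% in CK (SD, n = 3 each; exact permutation test over libraries, two-sided, p = 0.1). For the 100 most abundant genes it was 31.5 ± 0.88% in P2R and 33.1 ± 0.51% in CK (SD, n = 3 each; exact p = 0.1). The values of the 500 most abundant genes overlapped between the groups, with 58.9 ± 0.59% in P2R and 59.5 ± 0.58% in CK (SD, n = 3 each; exact p = 0.3).

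A rule named 4 genes, the largest rise and fall on the log2 scale and the largest gain and loss in mean FPKM. A09380, of 1074 bp, rose the most. It had 176.2, 300.8 and 184.2 FPKM in P2R against 10.5, 15.3 and 7.80 FPKM in CK. Every P2R library was more than 10 times as high as the CK mean, and P2R replicate 2 was the highest. The means were 220.4 ± 69.7 FPKM in P2R and 11.2 ± 3.81 FPKM in CK (SD, n = 3 each), a 19.6-fold difference with a log2 difference of 4.18 (SE 0.26, limma adjusted p = 2.39e-05). The call held in all 15 alternatives, with limma adjusted p from 8.14e-06 to 2.93e-04.

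A10600, of 717 bp, fell the most. It had 43.3, 26.4 and 20.2 FPKM in P2R against 424.2, 516.4 and 436.4 FPKM in CK, and the groups lay far apart. Its means were 30 ± 11.9 FPKM in P2R and 459.0 ± 50.1 FPKM in CK (SD, n = 3 each), 15.3-fold lower with a log2 difference of -3.96 (SE 0.23, limma adjusted p = 1.84e-05). This call also held in the 15 alternatives, with limma adjusted p up to 0.00236.

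A10878, with a coding length of 324 bp, gained the most FPKM. It had 8896, 10202 and 13724 FPKM in P2R against 4758, 4036 and 3557 FPKM in CK, with the lowest P2R library well above the highest CK library. The gain was 6824 FPKM, a 2.66-fold difference with a log2 difference of 1.40 (SE 0.18, limma adjusted p = 4.63e-04). Alternatives gave 1.22 to 1.58 log2 units, and the call held in all 15 of them.

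A00619, of 384 bp, lost the most FPKM while it stayed among the abundant genes of both groups. It had 13348, 11553 and 13442 FPKM in P2R against 24102, 21987 and 19347 FPKM in CK, with no overlap. Its mean fell by 9031 FPKM, and the log2 difference was -0.77 (SE 0.13, limma adjusted p = 0.00187). It did not pass the test against a change of 1.5 times (limma treat adjusted p = 0.706). After quantile normalization, which gives genes of equal rank the same value in every library, its log2 difference was -0.19 and did not pass (limma adjusted p = 0.332), within a range of 9.81e-04 to 0.332 over 15 alternatives.

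**Figure D4:**
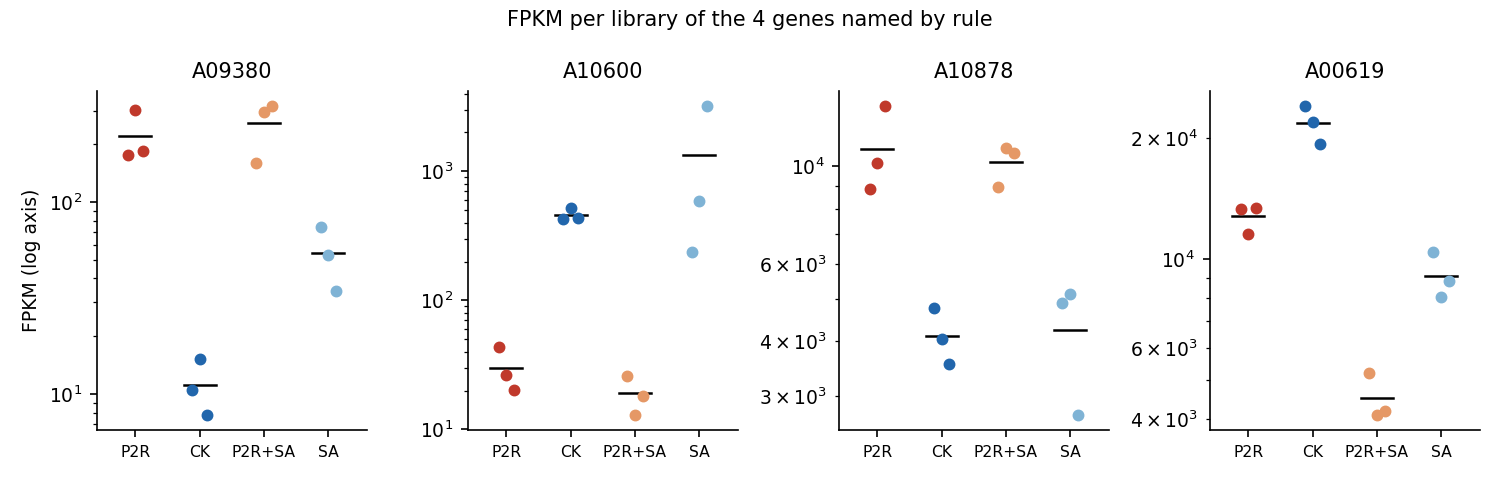
FPKM of A09380, A10600, A10878 and A00619 in each library (points, log axis) of P2R, CK, P2R+SA and SA, with the mean of the 3 libraries as a line. In each panel the 3 P2R points lie apart from the 3 CK points, from 176.2 to 300.8 FPKM against 7.80 to 15.3 FPKM for A09380.

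The 10 largest rises on the log2 scale lay between 3.16 and 4.18 log2 units, with means of 50.1 to 807.8 FPKM in P2R and 3.66 to 92.3 FPKM in CK. Rank 10, of 537 bp, was the most abundant of them, with 874.0, 825.3 and 724.2 FPKM in P2R against 129.4, 73.8 and 73.6 FPKM in CK. Rank 7, of 1086 bp, differed most between P2R libraries, with 113.1, 297.3 and 277.8 FPKM in P2R against 21.4, 17.0 and 19.0 FPKM in CK. The 10 largest falls lay between -3.96 and -2.89 log2 units, with means of 0.327 to 40.1 FPKM in P2R and 11.7 to 459.0 FPKM in CK. The limma adjusted p of these genes was at most 1.36e-04. This is no support for rank 4 of the falls, which was under 1 FPKM in every P2R library, passed the expression limit through CK alone and so had to differ. In the group where they were high, most of these genes lay well above the median of all tested genes, 23.2 FPKM.

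By FPKM rather than fold, the 10 largest gains ran from 2285 to 10941 FPKM in P2R against 872.3 to 5698 FPKM in CK (means), with log2 differences of 0.49 to 1.86. The gene with the next largest gain after A10878, of 498 bp, had 3828, 4020 and 4422 FPKM in P2R against 1053, 1087 and 1229 FPKM in CK, so its groups lay far apart. The 10 largest losses ran from 738.3 to 12781 FPKM in P2R against 2576 to 21812 FPKM in CK, with log2 differences of -2.10 to -0.39. Most of the 10 losses and some of the 10 gains did not pass the test against a change of 1.5 times. Rank 4 among the losses, of 936 bp, fell the most steeply, with 627.5, 796.4 and 791.1 FPKM in P2R against 3320, 2809 and 3349 FPKM in CK. Its log2 difference was -2.10 (SE 0.12, limma adjusted p = 1.64e-05). Among the gains and losses all coding lengths lay between 222 and 1245 bp. Of all 329 tested genes at 500 FPKM and over, 273 were at or under the median length of 1356 bp.

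P2R replicate 2 lay somewhat farther from the CK mean than the other P2R libraries. Over the 443 large rises the median difference from the CK mean was 1.26, 1.65 and 1.27 log2 units in P2R replicates 1, 2 and 3. Over the 268 large falls it was -1.28, -1.41 and -1.27 log2 units. These genes were chosen with these libraries, so the values describe and do not test. The median-of-ratios scaling factor was 0.9203 in P2R replicate 2, against 0.9814 and 1.0009 in P2R replicates 1 and 3. Its limma array quality weight, low for libraries that vary more, was 0.3137, the lowest of the 6. The part of scale and of library quality in its larger differences was not tested. Without P2R replicate 2 4268 genes were called. Of these 393 were higher and 249 lower in P2R by 1 log2 unit or more, a share of rises of 61.2%. Leaving out any 1 of the 6 libraries gave 3432 to 4268 called genes and a share of rises among large changes of 61.1% to 63.1%.

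The dye was also added to sinapic acid medium (P2R+SA vs SA), in libraries that P2R vs CK does not use. All of these carry the header number 48, so sinapic acid and the header number cannot be told apart here. The P2R+SA headers also hold a 4 of unstated meaning, and whether the dye dose was equal in both media is not given. Of the 9058 genes 550 (6.07%) changed there at a limma adjusted p under 0.05, 259 (2.86%) higher and 291 (3.21%) lower in P2R+SA. That count rested on single libraries. It was 1881 when P2R+SA replicate 1 was left out, 150 for P2R+SA replicate 2 and 226 for P2R+SA replicate 3. For SA replicates 1, 2 and 3 it was 882, 468 and 407. Leaving out any 1 of the CK and P2R libraries, which enter only the common spread, gave 324 to 436. The fit over 12 libraries uses 1 spread per gene for all 4 groups. The median SD between replicates was 0.21 log2 units in P2R+SA and 0.22 in SA, against 0.13 in P2R and 0.10 in CK. The SE and limma adjusted p of P2R+SA vs SA may therefore be too small. Whether called or not, 3739 of the 9058 genes were higher and 5319 lower in P2R+SA than in SA. Of the 61 genes that had risen by 2 log2 units or more, 56 were higher in P2R+SA than in SA, and 22 of the 61 were called. Of the 31 that had fallen by as much, 30 were lower and 16 were called. The 382 rises of 1 to 2 log2 units had 341 higher and the 237 falls of that size had 210 lower. The direction was thus shared by 88.6% to 96.8% of the genes in these classes of large change. Leaving out any 1 SA or P2R+SA library gave 81.4% to 96.8%.

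The median sizes were smaller in sinapic acid medium, but the classes were set by size in P2R vs CK, which favours larger values there. The median of the 61 largest rises was 2.42 log2 units in P2R vs CK and 0.89 in P2R+SA vs SA (quartiles 0.50 and 1.37). That of the 31 largest falls was -2.37 log2 units in P2R vs CK and -1.81 in P2R+SA vs SA (quartiles -2.71 and -1.38). Without any 1 SA or P2R+SA library these medians were 0.76 to 1.21 and -2.32 to -1.64. The difference between the sizes of rises and falls was not tested.

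The 4 named genes moved the same way in sinapic acid medium. A09380 had 160.1, 295.5 and 316.9 FPKM in P2R+SA against 74.3, 53.2 and 34.5 FPKM in SA (log2 difference 2.24, SE 0.34, limma adjusted p = 0.00381). A10600 had 26.0, 13.0 and 18.1 FPKM in P2R+SA against 239.1, 583.9 and 3209 FPKM in SA (log2 difference -5.31, SE 0.69, limma adjusted p = 0.00188). SA replicate 3 stood far above the other SA libraries in A10600, so the SE of that gene, from the common spread, may be too small. The groups did not overlap in A09380 or in A10600. A10878 rose by 1.32 log2 units there (SE 0.24, limma adjusted p = 0.00955). This call was lost when P2R+SA replicate 2 was left out (limma adjusted p = 0.0543). A00619 had a log2 difference of -1.02 (SE 0.15, limma adjusted p = 0.00381). The difference between the dye effects did not pass in A09380, A10600, A10878 or A00619 (limma adjusted p = 0.0802, 0.555, 0.941 and 0.633). For A09380 the range was 0.0456 to 0.191 over 14 alternatives, of which 1 passed.

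**Figure D5:**
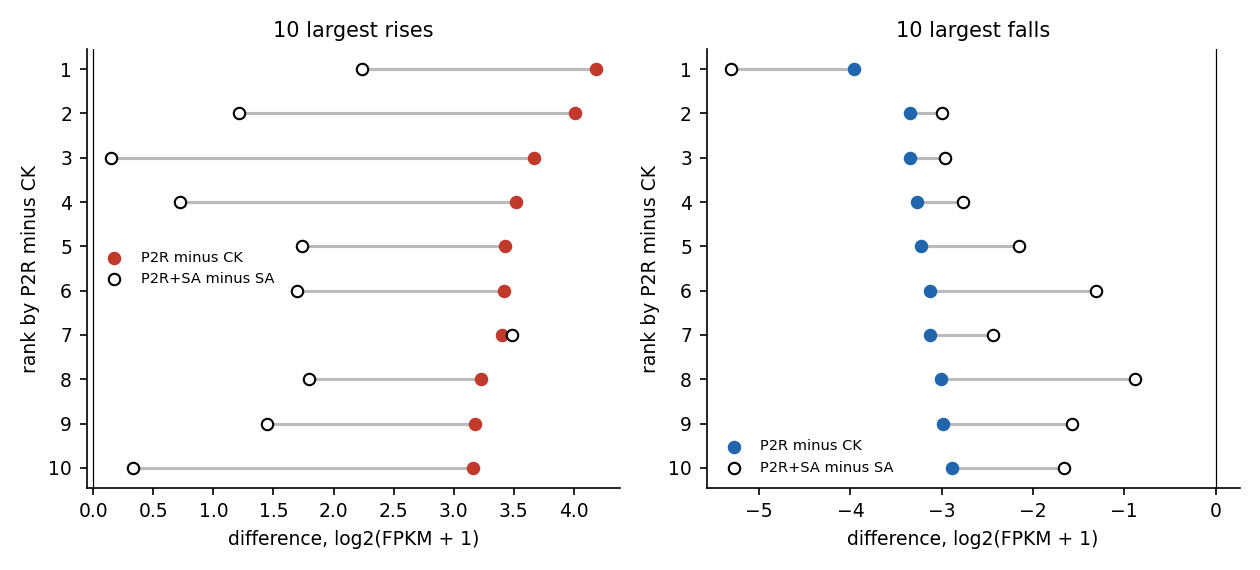
Difference on the log2(FPKM + 1) scale (horizontal axis) of P2R minus CK (filled points) and P2R+SA minus SA (open points) for the genes with the 10 largest rises (left panel) and falls (right panel) in P2R vs CK, by rank. Open points of the rises range from 0.15 for rank 3 to 3.48 for rank 7, and all 20 open points lie on the same side of 0 as their filled points.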

How the data were processed

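Per the labels' protocols, mycelial RNA was isolated with TRIzol and prepared with the VAHTS Universal V10 kit. The values used are FPKM as deposited by the authors. HTSeq, HISAT2, fastp and R 3.2.0 appear, without roles, in the submitters' processing notes. For build, annotation and strand setting the entry is: not given in the sources used here. Groups come from the sample titles. The series-wide table was used for tests, and the per-library files, equal to it within 4.9e-06 FPKM, for recovering fragments.

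Whole fragments came out for all 10229 genes above 0 in any library (tolerance 1e-05 fragments, lengths in steps of 3 bp). In a simulation built from these fragments and lengths, 99.8% of 10190 genes were recovered exactly. It took the steps of 3 bp as given and so cannot check the lengths themselves. Replicates differed by more than counting noise (chi-square per degree of freedom at least 26.1).

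The 9058 member genes were fitted with limma 3.58.1 in R 4.3.3 on log2(FPKM + 1) with an intensity trend and 4 residual degrees of freedom. P-values are two-sided and Benjamini-Hochberg adjusted over all genes, with calls under 0.05. The differences between dye effects, and P2R+SA vs SA, come from 1 fit over 12 libraries on the same genes. In a simulated P2R vs CK with 9058 genes, 40.3% of the genes changed by 0.5 log2 units were called, 95.5% at 1 log2 unit and 100.0% at 2 log2 units, with 12 false among 169 calls. Only 67, 67 and 66 genes were given changes of these sizes, far fewer than the 4513 called in P2R vs CK. The simulated shares need not hold for these data. Named genes passed 0.05, had groups without overlap and reached a mean of 5 FPKM or more in P2R or CK, and are the extremes by log2 difference and by FPKM. The other ranked genes meet the same conditions and were added after their values were seen. The comparison, classes and rules were chosen with earlier results of these data known. Alternatives were other pseudocounts, filters, scalings, weights, library sets, a replicate block and leaving out each library.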

Additional observations from a re-analysis of the deposited data

Results flagged for a closer look

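Among the genes with the 10 largest rises and falls in P2R vs CK, 6 had a dye effect that differed between media by the test of the difference itself (P2R vs CK less P2R+SA vs SA, limma over 12 libraries). Over all 9058 genes 108 passed (1.19%). With any 1 of the CK and P2R libraries left out it was 36 to 50. Leaving out SA replicate 1 gave 170, and leaving out SA replicate 2 gave 332. The ranked genes were chosen as extreme in P2R vs CK, which is part of this difference and favours a large value. SA and P2R+SA libraries also carry another header number than P2R and CK, so medium and header number cannot be told apart.

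The gene of rank 3 among the rises, of 1620 bp, had 311.4, 409.2 and 328.6 FPKM in P2R against 22.5, 25.1 and 32.6 FPKM in CK. In sinapic acid medium it had 51.6, 70.4 and 37.6 FPKM in P2R+SA against 36.4, 62.0 and 44.4 FPKM in SA, with overlapping groups. The difference between the effects was 3.52 log2 units (SE 0.34, limma adjusted p = 0.00138), and limma adjusted p was at most 0.00841 over 14 alternatives.

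Rank 4 of the rises, of 534 bp, had 161.2, 207.6 and 171.1 FPKM in P2R against 12.9, 16.2 and 15.3 FPKM in CK, and 29.0, 20.9 and 20.6 FPKM in P2R+SA against 9.59, 21.6 and 12.2 FPKM in SA. Its difference was 2.80 log2 units (SE 0.34, limma adjusted p = 0.00408, at most 0.0173 over 14 alternatives). The gene of rank 2, of 1068 bp, had a difference of 2.80 log2 units too (SE 0.39, limma adjusted p = 0.00575, at most 0.0234). It kept a rise in sinapic acid medium, with 71.6, 78.7 and 84.5 FPKM in P2R+SA against 19.4, 53.3 and 34.9 FPKM in SA. Rank 10 had 874.0, 825.3 and 724.2 FPKM in P2R against 129.4, 73.8 and 73.6 FPKM in CK, and 49.5, 98 and 48.4 FPKM in P2R+SA against 43.7, 35.3 and 76.1 FPKM in SA. Its difference was 2.84 log2 units (SE 0.46, limma adjusted p = 0.0133), a call that leaving out CK replicate 3 ended (limma adjusted p = 0.0515).

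Among the falls, the gene of rank 8, of 609 bp, had a difference of -2.12 log2 units (SE 0.28, limma adjusted p = 0.00408). It had 2.46, 2.00 and 1.71 FPKM in P2R against 22.4, 20.1 and 28.5 FPKM in CK, and 0.721, 0.445 and 1.27 FPKM in P2R+SA against 1.83, 2.17 and 2.94 FPKM in SA. All of the last 6 values are low, and the call was lost with a pseudocount of 0.1 (limma adjusted p = 0.0622). The gene of rank 6, of 330 bp, had a difference of -1.83 log2 units (SE 0.35, limma adjusted p = 0.0296) that passed in 6 of 14 alternatives. It was lost with the replicate block, when any 1 CK or P2R library was left out and when P2R+SA replicate 3 was left out (limma adjusted p up to 0.0893). This gene had 27.7, 37.9 and 40.5 FPKM in P2R against 329.2, 323.7 and 290.5 FPKM in CK. In sinapic acid medium it had 12.4, 7.80 and 8.45 FPKM in P2R+SA against 21.1, 37.9 and 18.6 FPKM in SA. Its SA values thus lay far below its CK values.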

How the results depend on the processing

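Of the counts of genes changed in P2R vs CK, those of the fit over all 12 libraries moved by more than 1.5 times, to 2651 called genes (1140 higher, 1511 lower) and 172 past a change of 1.5 times (116 higher, 56 lower). With a pseudocount of 0.1, 432 genes fell by at least 1 log2 unit. The share of called genes that were higher turned to a majority with median-of-ratios scaling (52.5%) and limma-voom (52.6%), and the median of all genes with it (0.002 and 0.004). Without any 1 of the 6 libraries, 3432 to 4268 genes were called. The difference between the dye effects passed for 36 to 332 genes over left-out libraries and for 65 with the replicate block; its value in A10878, not called, ran from -0.10 to 0.37 log2 units over left-out libraries. Causes were not tested. Deviations from the group mean did not go together in same-numbered P2R and CK libraries (r of -0.098, -0.226 and -0.062). The numbers were therefore not taken as pairs. The replicate block gave 3918 called genes, with 443 large rises and 268 large falls. In simulation, with far fewer changed genes than were called here, changes of 0.5 log2 units were recovered less often (40.3%) than larger ones. Small changes may be missed, at a share that the simulation does not give. With 3 libraries a group no exact test of a single value can go below 0.1.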

Other observations

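Genes with consecutive ID numbers had weakly correlated differences between P2R and CK. Across 8012 pairs of tested genes whose numbers differ by 1, the P2R vs CK differences had a Pearson r of 0.116, and Spearman's rho was 0.106. For pairs 2 numbers apart r was 0.039 over 7874 pairs. At 3, 5, 10, 50 and 200 numbers apart it was 0.016, 0.023, 0.013, -0.00 and 0.029, with no steady decline. In P2R+SA vs SA, which shares no library with P2R vs CK, r was 0.113 for consecutive numbers, 0.040 for pairs 2 apart and 0.026 for pairs 200 apart. The points are genes of the same libraries and no independent replicates, so no p is given. The sources used here do not say whether the numbers follow the order of genes on a chromosome, and similar neighbouring copies that share reads could not be checked.

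Of the pairs with consecutive numbers, 36 held 2 large rises, 23 held 2 large falls and 18 a rise and a fall. At the 6 larger distances the counts were 13 to 24 pairs of rises, 4 to 11 pairs of falls and 16 to 28 of a rise and a fall, so the count of opposite pairs at consecutive numbers lay within the range of the other distances. Longer runs were few, with 3 runs of 3 consecutive numbers that all rose by at least 1 log2 unit. In the first, with coding lengths of 1632 to 2328 bp, the rises were 1.29 to 3.43 log2 units in P2R vs CK and 0.93 to 1.74 log2 units in P2R+SA vs SA. In the other two the values in P2R+SA vs SA lay between -0.18 and 1.01 log2 units.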
